A study of Mus musculus with 4 samples.

Results

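The endosomal Toll-like receptors and the proteins that carry them to the endosome were examined in mouse bone marrow, as 8 genes of the 31053 in the deposited matrices. They were chosen by symbol: the receptors Tlr3, Tlr7, Tlr8, Tlr9 and Tlr13 and the trafficking proteins Unc93b1, Cnpy3 and Hsp90b1. Mononuclear cells were collected on Ficoll from femur and tibia of C57BL/6 mice, 2 wild-type (WT) and 2 TLR9-/-, and each mouse gave 1 single-cell library read from the 5′ end of the transcripts. The study profiled them in 2 experiments, with 1 mouse of each genotype in each, and the labels do not tie the library numbers to the experiments. No treatment or age is given in the labels, and all mice share the strain. The knockout is named without restriction to a cell type. The comparison asks which marrow cells carry Tlr9, and whether the other endosomal receptors differ when it is lost.

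Endosomal Toll-like receptors detect nucleic acids that have been taken up by the cell. TLR9 binds DNA with unmethylated CpG motifs, TLR7 and TLR8 respond to RNA, TLR3 to double-stranded RNA, and mouse TLR13 to bacterial ribosomal RNA. Most of them fold in the endoplasmic reticulum with the help of the chaperone gp96, encoded by Hsp90b1, and its partner CNPY3. UNC93B1 then escorts the receptors to endosomes, where proteases cleave them. Plasmacytoid dendritic cells and B cells are the textbook sites of TLR9.

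Tlr9 (ENSMUSG00000045322) lies on the plus strand of chromosome 9 of GRCm38, from 106222598 to 106226883, with 2 exons in its 1 annotated transcript and no overlapping gene. Tlr7 and Tlr8 lie next to each other on the minus strand of chromosome X, from 167304929 to 167330558 and from 167242696 to 167264329, and Tlr13 lies on the plus strand of the same chromosome, from 106143204 to 106160493. RefSeq promoters of GRCm38.p6, which run from 250 bases before to 50 after the RefSeq start, matched 6 of the 8 symbols. For Tlr13 that start is not the gene start given above. Tlr7 and Unc93b1 had no entry. The promoters of Tlr9 (chr9:106222348-106222647, plus strand) and Tlr13 (chrX:106143025-106143324, plus strand) are shown because the 2 receptors occupied different cell classes in the data below. Capitals mark GAGGAAG, the letters that the myeloid and B cell factor PU.1 favours, on either strand.
Tlr9: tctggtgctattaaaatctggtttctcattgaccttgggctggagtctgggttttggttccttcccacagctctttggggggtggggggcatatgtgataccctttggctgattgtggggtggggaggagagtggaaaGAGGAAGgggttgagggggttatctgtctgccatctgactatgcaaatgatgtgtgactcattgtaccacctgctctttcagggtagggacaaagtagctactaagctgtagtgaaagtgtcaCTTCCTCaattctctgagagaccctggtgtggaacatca
Tlr13: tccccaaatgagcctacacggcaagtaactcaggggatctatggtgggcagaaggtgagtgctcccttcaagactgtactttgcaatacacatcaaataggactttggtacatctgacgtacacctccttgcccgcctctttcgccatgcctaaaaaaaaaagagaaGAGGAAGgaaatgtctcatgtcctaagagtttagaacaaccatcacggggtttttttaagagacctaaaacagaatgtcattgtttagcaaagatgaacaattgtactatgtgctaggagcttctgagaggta
The motif occurred 2 times in the Tlr9 window, 1 time in that of Tlr13 and 0 times in those of Tlr3, Tlr8, Cnpy3 and Hsp90b1. It was present in 13.6% of 32851 promoters of the same length. A match describes letters only.

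After filtering, 39167 cells remained, and the depth of the 4 libraries ran from 31210188 to 63958243 unique molecular identifiers (UMIs, which mark single captured molecules). The median per cell was 1759 and 2287 UMIs in the WT libraries numbered 1 and 2 and 2545 and 3618 in the TLR9-/- libraries. Cells were clustered without the 8 genes, and a cluster was named for the class whose markers it carried, so that a name below means cells that resemble this class. Plasmacytoid dendritic cells, for example, were led by Siglech, Ccr9 and Bst2. B cells made up 18.2% and 22.2% of the WT cells and 11.1% and 15.5% of the TLR9-/- cells, and monocytes 6.43% and 6.24% against 11.9% and 12.9%. Clusters in which over 50% of the cells were marked as doublets were given no class, which set aside between 2.29% and 3.11% of the cells of each library. In the cells kept, 797 barcode sequences occurred in more than 1 library. Levels are given as counts per 1000000 UMIs of the class in the same library (CPM), with exact 95% Poisson intervals that cover counting error only, and they are not compared between genes.

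In WT marrow, Tlr9 was highest in plasmacytoid dendritic cells, the main producers of type I interferon, and in B cells. Its level in WT plasmacytoid dendritic cells was 26.6 CPM (interval 19.6 to 35.4, 47 UMIs) and 15.4 CPM (8.78 to 25.0, 16 UMIs). In WT B cells it was 10.4 CPM (6.81 to 15.3, 26 UMIs) and 13.3 CPM (9.57 to 18.0, 42 UMIs). Plasmacytoid dendritic cells thus stood above B cells in both WT libraries, though in the library numbered 2 by less than the counting intervals. With doublets left out, the library numbered 2 had 11.3 CPM in plasmacytoid dendritic cells and 13.8 CPM in B cells. At a finer clustering, whose plasmacytoid class also took in cells led by Flt3 and Runx2, it had 9.45 and 13.5 CPM. The intervals overlapped each time, so the order of the 2 classes in that library is not resolved. In the library numbered 1, plasmacytoid dendritic cells stayed higher, at 24.4 and 17.4 CPM against 10.95 and 11.1 CPM. These 2 classes held 29.0% and 31.3% of the 217 Tlr9 UMIs of the WT libraries, with 3.87% and 7.79% of the UMIs of all genes.

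Lower levels were seen in WT conventional dendritic cells, at 4.90 and 6.76 CPM, and in monocytes, at 4.85 and 5.35 CPM. These neighbours in the order did not differ beyond their intervals. B cell precursors had 1.35 and 1.32 CPM, below the intervals of the B cells. Few Tlr9 UMIs were counted in neutrophils, with 2 in the immature class and 0 in the mature class over both WT libraries. In mature cells a count of 3 would be 12.4 and 2.97 CPM. At the depth of the library numbered 1, a level like that of B cells could thus be missed. The TLR9-/- libraries had 3 Tlr9 UMIs in the mature class. In erythroid cells 0 Tlr9 UMIs were counted in any of the 4 libraries, where a count of 3 would be 0.797 and 0.856 CPM in the WT libraries. Tlr9 is too rare for this count to show free RNA, and the part of free RNA was not tested. A cluster with erythroid genes in which 52.6% of the cells were marked as doublets, and which was given no class, had 10 and 3 Tlr9 UMIs in the WT libraries and 1 in each TLR9-/- library.

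**Figure D1:**
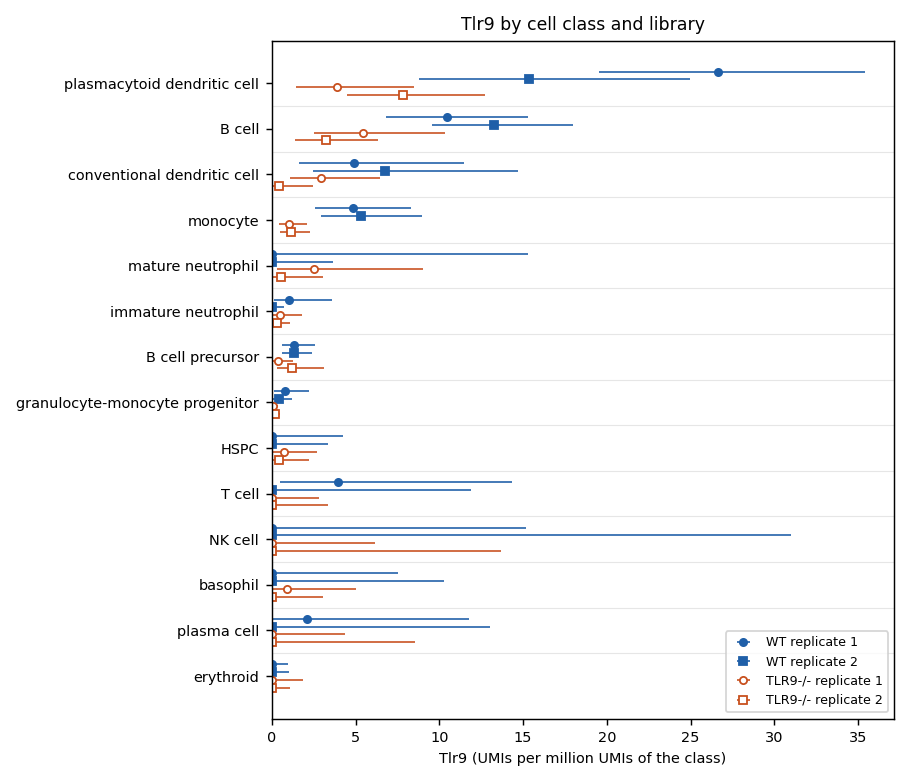
Tlr9 in CPM of the class (horizontal axis) for 14 cell classes and 4 libraries, with exact 95% Poisson intervals as bars. Plasmacytoid dendritic cells and B cells lie highest in WT (filled symbols), and in both classes the TLR9-/- libraries (open symbols) lie below the WT libraries.

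Within the B lineage, Tlr9 differed between stages in WT marrow. The precursor cluster led by Myl4 and Bach2 had 0.608 and 0.547 CPM, and the precursor cluster led by Rag1 and Il2ra had 3.92 and 5.01 CPM. The B cell cluster led by Ms4a1 and Cd72 had 10.8 and 18.2 CPM, and the one led by Fcer2a and Ighd, which mark mature follicular cells, had 9.39 and 9.81 CPM. A precursor cluster led by Vpreb1 and Dntt had 3 Tlr9 UMIs in the WT libraries (1.31 to 3.09 CPM). Another, led by Igll1 and Bfsp2, had 1 (0 to 0.511 CPM). By mean, Tlr9 was thus lowest in the Igll1 and Bfsp2 cluster and the Myl4 and Bach2 cluster. Pooled over the WT libraries, their intervals (0.0075 to 1.64 and 0.157 to 1.47 CPM) overlapped that of the Vpreb1 and Dntt cluster (0.439 to 6.21 CPM). The order of these clusters is not resolved. The 2 larger B cell clusters overlapped in their intervals. A smaller B cell cluster of 188 cells, led by Iglv3 and Ms4a1, had 5 Tlr9 UMIs in the WT libraries (3.93 to 12.1 CPM). It had 0 in the TLR9-/- libraries, where it held 30 and 10 cells. Within monocytes, the cluster led by Clec4a3 and Ms4a4a had 7.44 and 9.66 CPM and the cluster led by Fn1 and Itga1 had 2.72 and 2.03 CPM.

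The other receptors each had their own distribution in WT marrow. Tlr7 was also highest in plasmacytoid dendritic cells, at 87.8 and 48.0 CPM, which held 36.1% of its 568 WT UMIs. Among classes with at least 5 Tlr7 UMIs in each WT library, the next highest by mean were monocytes at 28.4 and 13.8 CPM and mature neutrophils at 24.8 and 5.93 CPM (6 UMIs in each library). B cells at 16.8 and 9.49 CPM and conventional dendritic cells at 19.6 and 5.63 CPM followed. The counting intervals of mature neutrophils overlapped those of the other 3 classes in both libraries, and their order is not resolved. B cell precursors had 1.20 and 0.792 CPM. In each of these classes the WT library numbered 1 was higher than the library numbered 2. Tlr13 was found in mature neutrophils, at 99.4 and 81.1 CPM, and in monocytes, at 45.2 and 42.4 CPM, and these classes held 22.2% and 48.5% of its 478 WT UMIs. In contrast to Tlr9, it was nearly undetected in plasmacytoid dendritic cells, with 1 UMI in the WT libraries, and in B cells, with 3. Immature neutrophils had 3.50 and 6.62 CPM of Tlr13, below the intervals of the mature cells.

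Tlr8 and Tlr3 were sparse. Tlr8 had 42 WT UMIs in all, of which monocytes held 22, at 5.97 and 2.29 CPM. Tlr3 had 31 WT UMIs, of which conventional dendritic cells held 15, at 7.85 and 7.89 CPM. At a finer clustering, the conventional dendritic class separated into a cluster led by Cd209a, Ckb and Batf3, a cluster led by Flt3 and Runx2, and smaller parts that joined other clusters. The first took 455 cells of the class and the second 500, and the second carried 3 markers of plasmacytoid and 2 of conventional dendritic cells among its 10 leading genes, and was named plasmacytoid there. Tlr3 had 4 and 2 WT UMIs in the first of these clusters and 3 and 5 in the second, with the few cells of other classes they held, so the level of the class draws on both. A further cluster, led by C1qb, C1qc, C1qa and Ace, took 109 cells of the class and 156 monocytes. It carried markers of macrophages and of nonclassical monocytes in equal number and was therefore left unnamed. It had 65.5 and 23.1 CPM of Tlr7 in the WT libraries, and 49.1 and 57.7 CPM of Tlr13. It had 0 Tlr9 UMIs in all 4 libraries, where a count of 3 would be 16.4 and 34.6 CPM in the WT libraries. A Tlr9 level like that of monocytes could thus be missed in this cluster.

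**Figure D2:**
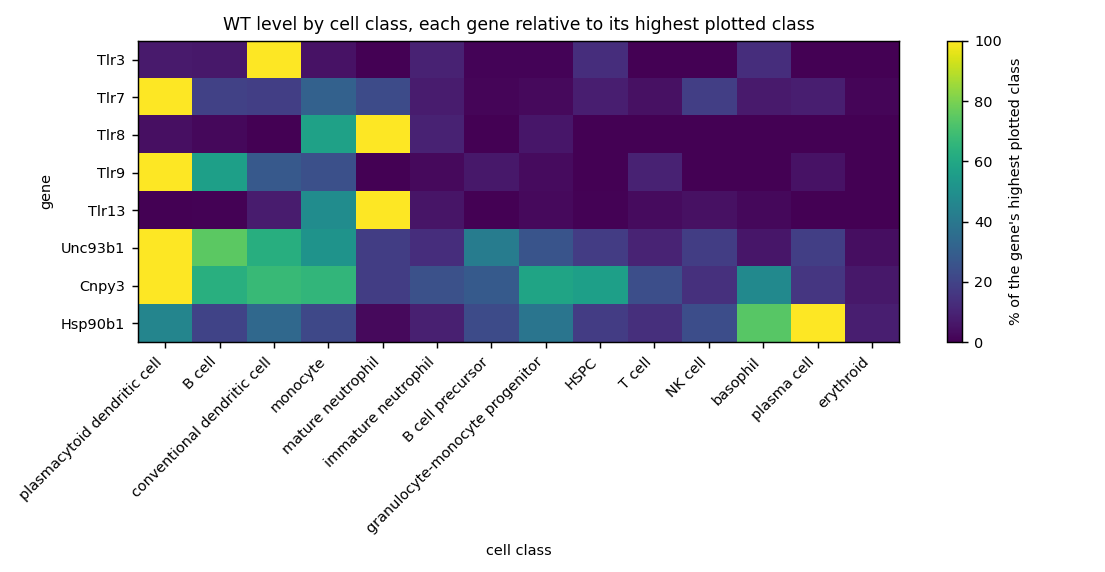
Mean WT level (2 libraries) of each of the 8 genes (rows) in 14 cell classes (columns), as a percentage of the highest class plotted for the same gene. Tlr7, Tlr9, Unc93b1 and Cnpy3 peak in plasmacytoid dendritic cells, Tlr13 in mature neutrophils, Tlr3 in conventional dendritic cells and Hsp90b1 in plasma cells; the Tlr8 value in mature neutrophils rests on 5 UMIs.

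The trafficking genes were counted in all 14 plotted classes of WT marrow, as was Tlr7. The receptors had far fewer UMIs, so breadth is not compared between the genes. Unc93b1 was highest in plasmacytoid dendritic cells, at 709 and 673 CPM, and next in B cells, at 525 and 512 CPM. Among B cells, the Ms4a1 and Cd72 cluster had 666 and 660 CPM, and its counting intervals overlapped those of plasmacytoid dendritic cells in both libraries. The Fcer2a and Ighd cluster had 420 and 383 CPM. Unc93b1 was lowest in erythroid cells, at 32.1 and 18.3 CPM, and it varied within the B cell precursors. The Rag1 and Il2ra cluster had 636 and 595 CPM and the Vpreb1 and Dntt cluster 347 and 419 CPM. The Myl4 and Bach2 cluster had 256 and 235 CPM, and the Igll1 and Bfsp2 cluster 99.6 and 102 CPM. Cnpy3 was also highest in plasmacytoid dendritic cells, at 114 and 94.1 CPM, and lowest in erythroid cells, at 6.11 and 7.42 CPM. Hsp90b1, whose product folds many secreted and membrane proteins, followed another order. It was highest in plasma cells, at 2068 and 2082 CPM, and in basophils, at 1516 and 1553 CPM, and lowest in mature neutrophils, at 45.5 and 52.4 CPM, the class with the highest Tlr13.

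Across 15 classes in WT marrow, the genes whose log2(CPM + 5) profile was most like that of Tlr9 included Stat2, Cd180, Kynu and Clcn6, with Pearson's r between 0.897 and 0.932 among 11089 genes. Without plasmacytoid dendritic cells r was between 0.810 and 0.868. For Tlr7 they were Plekhm3, Stx7, Ssfa2, Wfs1 and Gpr137b, with r between 0.844 and 0.873. Without plasmacytoid dendritic cells, r was between 0.690 and 0.821 for these. The points share their libraries, and the classes differ in depth, so these values are a description. With a pseudocount of 1 in place of 5, Slc15a4 came first for Tlr9 and Cd180 and Clcn6 were no longer among the 5 most similar, and 2 of the 5 genes remained for Tlr7.

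In TLR9-/- marrow, Tlr9 was lower than in WT but was still counted. Over all cells the TLR9-/- libraries had 41 and 48 Tlr9 UMIs, or 0.817 and 0.750 CPM, against 120 and 97 UMIs, or 3.84 and 2.34 CPM, in WT. All values of the 2 genotypes were apart. The difference was 3.94-fold (95% interval 2.15 to 7.22), yet it did not pass the threshold of 0.05 in edgeR's quasi-likelihood test over 14194 genes (adjusted p = 0.117, unadjusted p = 0.0018, log2 fold change -1.98, SE 0.35), in which 0.268% of genes passed. It passed with DESeq2 (adjusted p = 0.00095) and with no filter on low counts (adjusted p = 0.0070). It was also called with the replicate number as a block, though the labels do not tie that number to the experiments. The disrupted part of Tlr9 is not given in the sources used here, and counts per gene do not show which part of the transcript was read, so the remaining UMIs cannot be assigned to an intact transcript. Fewer cells of a class and less RNA per cell cannot be told apart in a sum over all cells. At the WT level of each cluster, the TLR9-/- libraries would have held 128 and 156 Tlr9 UMIs, so that the counts were 0.322 and 0.308 of those given by their own mix of clusters.

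Tlr9 was lower in TLR9-/- libraries within each class that carried most of it. In plasmacytoid dendritic cells it was 3.91 and 7.82 CPM in TLR9-/- against 26.6 and 15.4 CPM in WT. At a finer clustering, a plasmacytoid cluster with 0.94% marked doublets had 4.07 and 7.95 against 26.0 and 10.6 CPM. There the counting intervals of the libraries numbered 2 overlapped (4.34 to 13.3 in TLR9-/- and 4.84 to 20.1 in WT). In the class the CPM values of the genotypes did not overlap (log2 fold change -1.83, SE 0.43, adjusted p = 0.216 by edgeR). Here 0.25% of 8806 genes passed. The value moved with the library left out, from -1.29 without the WT library numbered 1 to -2.43 without the TLR9-/- library numbered 2, and it passed the threshold without that TLR9-/- library (adjusted p = 0.0042) and without the WT library numbered 2 (adjusted p = 0.017). With a library left out, the single library of its genotype is assumed to vary like those of the other. In B cells it was 5.44 and 3.21 CPM against 10.4 and 13.3 CPM (log2 fold change -1.49, SE 0.42, adjusted p = 0.445), and it passed without the TLR9-/- library numbered 1 (adjusted p = 0.041, under the same assumption). The TLR9-/- library numbered 2 had 1060 of its 1382 B cells in the Fcer2a and Ighd cluster, more than the other libraries. Within that cluster Tlr9 was 3.99 and 2.13 CPM in TLR9-/- against 9.39 and 9.81 CPM in WT, and within the Ms4a1 and Cd72 cluster it was 7.70 and 7.39 against 10.8 and 18.2 CPM. In monocytes it was 1.03 and 1.16 CPM against 4.85 and 5.35 CPM (log2 fold change -2.18, SE 0.43, adjusted p = 0.113). In the Clec4a3 and Ms4a4a cluster of monocytes it was 0.399 and 1.86 against 7.44 and 9.66 CPM, and in the Fn1 and Itga1 cluster 1.40 and 0.547 against 2.72 and 2.03 CPM. Thus the CPM values of TLR9-/- and WT libraries were separate in all 3 classes, but none of the 3 differences passed in this test with all libraries. With no filter on low counts, plasmacytoid dendritic cells passed (adjusted p = 0.00039 by edgeR), while B cells did not (adjusted p = 0.064).

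Over the 3 lineages, Tlr9 was tested in B lineage cells (precursors and B cells, adjusted p = 0.585, log2 fold change -1.31) and in monocyte lineage cells (monocytes and 32 macrophages, adjusted p = 0.109, log2 fold change -2.17). Tlr9 was too rare in neutrophils to pass the filter. With the replicate number as a block, which the labels do not tie to the experiments, it was called in monocyte lineage cells. The log2 fold change in monocyte lineage cells minus that in B lineage cells was -0.85 (95% interval of the difference -2.35 to 0.66), with an adjusted p of 1 in a model of all 3 lineages. Tlr3 did not pass the filter of this model, and none of the other 7 genes passed in any of the 3 tests of a difference between lineages, where 0.336% (monocyte against B), 0.21% (neutrophil against B) and 0.21% (neutrophil against monocyte) of 11893 genes did. At an unadjusted p under 0.05, only Tlr9 in neutrophil against monocyte lineage cells was below it (adjusted p = 0.575), and it rests on few neutrophil UMIs.

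None of the other 7 genes passed the test between genotypes. In all cells all 8 were tested, and 0 passed after adjustment while 1, Tlr9, had an unadjusted p under 0.05, as did 17.1% of all genes. In B lineage cells 5 of the 8 passed the low-count filter and 0 were called, with 0.287% of genes called. In monocyte lineage cells 7 were tested and 0 called, with 0.463% of genes called, and in neutrophil lineage cells 5 were tested and 0 called, with 0.544% called. An unadjusted p under 0.05 was found for Tlr9 and Tlr7 in monocyte lineage cells, where 6.47% of all genes had one. In B lineage cells it was found for Tlr9 only, and in neutrophil lineage cells for none, against 5.65% and 5.83% of all genes. Over the 15 finer classes, 60 tests of the 8 genes gave 0 calls and 3 unadjusted p under 0.05, all for Tlr9, while 0.269% of all tests passed and 6.41% had an unadjusted p under 0.05. With DESeq2, the single call in these comparisons was Tlr9 in all cells.

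The intervals of the other receptors were wide. Tlr7 in plasmacytoid dendritic cells was 82.1 and 65.0 CPM in TLR9-/- against 87.8 and 48.0 CPM in WT, with the TLR9-/- values between those of WT (log2 fold change 0.07, 95% interval -0.55 to 0.70). In B cells it was 12.1 and 13.3 CPM against 16.8 and 9.49 CPM (log2 fold change -0.02, interval -0.85 to 0.81). This class joins clusters of different stages, whose mix differed between libraries, and Tlr7 was not tested within a cluster. The class value thus does not show whether Tlr7 differed within a stage. With doublets left out, B cell precursors had 0.173 and 0.314 CPM in TLR9-/- (1 UMI in each) against 1.06 and 0.817 CPM in WT (7 and 6 UMIs). Their counting intervals overlapped, and this difference was not tested. In monocytes Tlr7 was 14.2 and 11.1 CPM against 28.4 and 13.8 CPM, where the TLR9-/- library numbered 1 lay above the WT library numbered 2. The monocyte lineage difference (log2 fold change -0.74, interval -1.47 to -0.01, adjusted p = 0.764) shrank to -0.14 without the WT library numbered 1. Over all cells Tlr7 had a log2 fold change of -0.35, which became 0.42 without that library. At the WT level of each cluster, the TLR9-/- libraries had 0.885 and 0.752 times the expected Tlr7 UMIs. For Tlr13 these ratios were 0.903 and 0.805, for Tlr8 1.28 and 0.872, and for Tlr3 1.09 and 0.450. These ratios were not tested.

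Tlr13 had a narrower interval in monocytes, at 36.2 and 41.7 CPM in TLR9-/- against 45.2 and 42.4 CPM in WT (log2 fold change -0.16, interval -0.55 to 0.23). In mature neutrophils it was 116 and 41.3 CPM against 99.4 and 81.1 CPM, so that the TLR9-/- libraries lay on both sides of WT. At a finer clustering, most of this class fell into a cluster led by Gm5483 and Il1b and one led by Retnlg and Mmp8. Tlr13 in the first was 141 and 67.6 against 139 and 111 CPM. In the second it was 36.5 and 31.1 against 70.4 and 52.5 CPM, with overlapping counting intervals. The TLR9-/- libraries had 617 and 338 cells in the first and 97 and 462 in the second. The part of this mix was not tested. Granulocyte-monocyte progenitors had 1.12 and 1.58 CPM against 2.04 and 2.86 CPM, and the genotypes were apart, but this did not pass (log2 fold change -0.95, SE 0.41, adjusted p = 0.524). Tlr8 in monocytes was 5.31 and 4.07 CPM against 5.97 and 2.29 CPM, and Tlr3 in conventional dendritic cells was 7.39 and 1.77 CPM against 7.85 and 7.89 CPM. Their intervals, from -0.86 to 1.23 and from -2.29 to 0.68 on the log2 scale, allow changes of more than 2-fold in at least 1 direction.

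**Figure D3:**
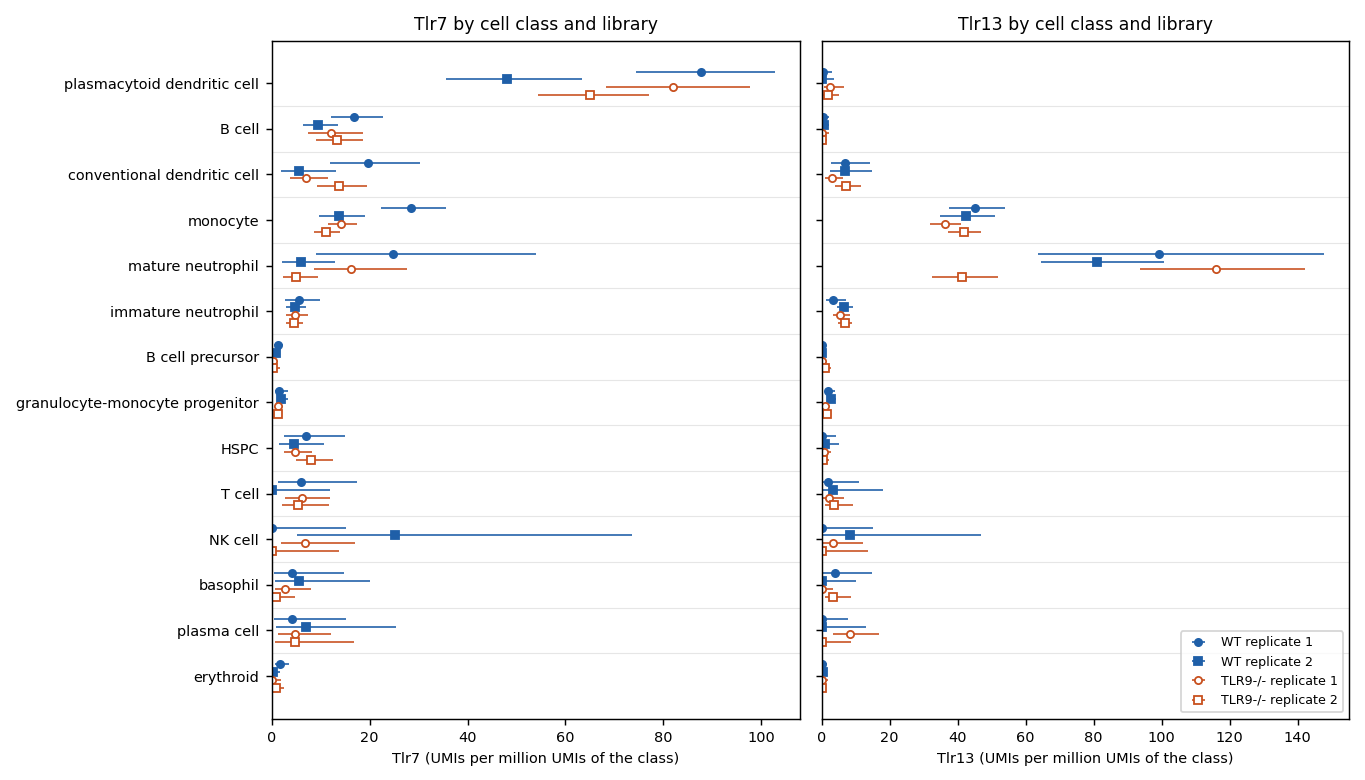
Tlr7 (left) and Tlr13 (right) in CPM of the class for 14 cell classes and 4 libraries, with exact 95% Poisson intervals. Tlr7 is highest in plasmacytoid dendritic cells, where the TLR9-/- libraries (open symbols) lie between the WT libraries (filled symbols). Tlr13 is highest in mature neutrophils, where the TLR9-/- libraries lie on both sides of WT.

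The intervals of the trafficking genes included 0 in each comparison tested. In plasmacytoid dendritic cells Unc93b1 was 703 and 792 CPM in TLR9-/- against 709 and 673 CPM in WT (log2 fold change 0.12, interval -0.26 to 0.49). In the Rag1 and Il2ra cluster it was 739 and 805 against 636 and 595 CPM. In the Ms4a1 and Cd72 cluster it was 783 and 817 against 666 and 660 CPM. The counting intervals of the genotypes did not overlap in either cluster. The Fcer2a and Ighd cluster had 476 and 429 against 420 and 383 CPM. The Igll1 and Bfsp2 cluster was lower, at 72.3 and 80.8 against 99.6 and 102 CPM. In the other B lineage clusters the genotypes overlapped, and single clusters were not tested. In monocyte lineage cells the log2 fold change of Unc93b1 was 0.04 (interval -0.31 to 0.39), that of Hsp90b1 0.10 (interval -0.28 to 0.49) and that of Cnpy3 0.19 (interval -0.25 to 0.64). Over all cells, Cnpy3 was 53.5 and 53.6 CPM against 46.4 and 36.5 CPM and Hsp90b1 661 and 573 CPM against 512 and 467 CPM, both higher in each TLR9-/- library, with adjusted p of 0.331 and 0.329. Unc93b1 had a log2 fold change of -0.02. At the WT level of each cluster, the TLR9-/- libraries had 1.08 and 1.10 times the expected Cnpy3 UMIs and 1.13 and 1.03 times those of Hsp90b1. The part of the cell mix in the sum over all cells was not tested further.

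**Figure D4:**
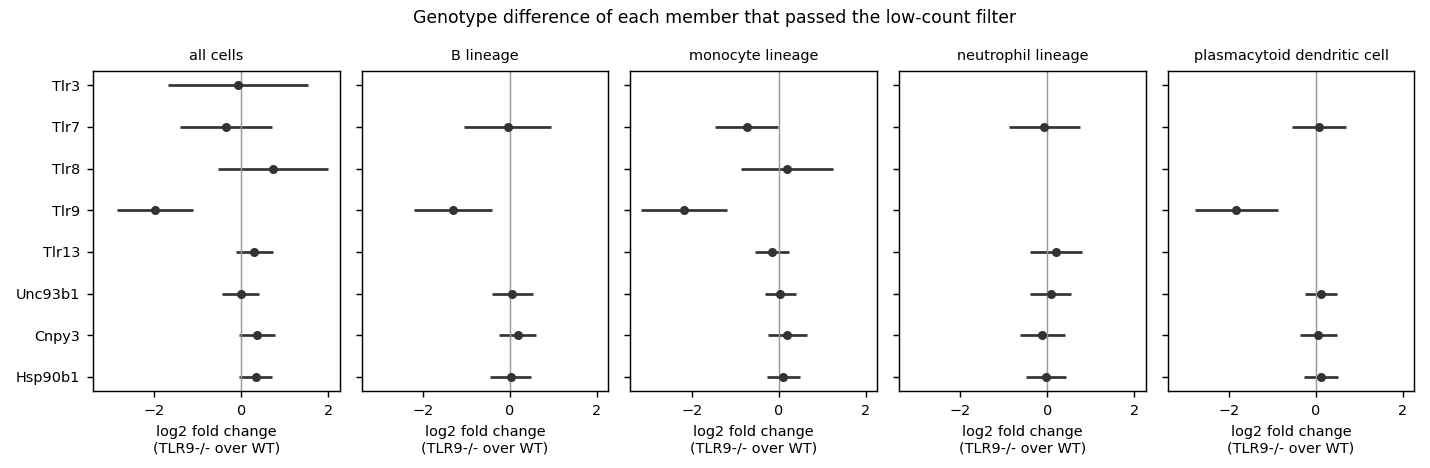
Log2 fold change of TLR9-/- over WT with its 95% interval (edgeR, 2 libraries per genotype) for the genes that passed the low-count filter in all cells, in 3 lineages and in plasmacytoid dendritic cells. Tlr9 lies left of 0 in each panel in which it was tested, and the intervals of the trafficking genes include 0.

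Of 44 further genes of the pathway in 5 lists, few were called. In all cells 43 were tested and edgeR called none, in B lineage cells 39 and none, and in neutrophil lineage cells 38 and none, where 0.268%, 0.287% and 0.544% of all genes were called. At an unadjusted p under 0.05 there were 7, 4 and 5 of them, or 16.3%, 10.3% and 13.2%, against 17.1%, 5.65% and 5.83% of all genes. DESeq2 called 3 in all cells, Cd14, Dnase1l3 and Tlr12, and 0 in the other 2 comparisons. The shares above are those of edgeR, and the share of all genes called by DESeq2 is not given here. In all cells the median log2 fold change of the tested pathway genes was 0.06, and that of all genes was -0.02. The 8 genes for the traffic of endosomal receptors had no call in any of these comparisons, nor in plasmacytoid dendritic cells, where 7 were tested.

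Among the endolysosomal proteases, Ctsl, which encodes cathepsin L, rose in TLR9-/- monocyte lineage cells. Its level there was 84.4 and 87.8 CPM against 28.9 and 27.3 CPM in WT, so the genotypes were widely apart (log2 fold change 1.62, SE 0.17, adjusted p = 0.0049 by edgeR), and it lost the call with no low-count filter (adjusted p = 0.053). It was 1 of 40 tested pathway genes called in this lineage, where 0.463% of 9935 genes were called, and 1 of 4 tested proteases.

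Among the other Toll-like receptors, Tlr12, an endosomal receptor that recognises the protist protein profilin, fell in plasmacytoid dendritic cells. It was 13.025 and 11.7 CPM in TLR9-/- libraries, from 20 and 24 UMIs, against 38.5 and 48.0 CPM in WT, from 68 and 50 UMIs. The genotypes did not overlap (log2 fold change -1.78, SE 0.26, interval -2.37 to -1.20, adjusted p = 0.023 by edgeR). Without the WT library numbered 1 the fold change was -1.91 and the adjusted p 0.061. It was 1 of 34 tested pathway genes called in this class, where 0.25% of 8806 genes were called.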

How the data were processed

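Single-cell RNA sequencing was performed by the authors on 4 libraries with 10x Genomics 5′ chemistry. The submitters' processing notes name Cell Ranger, STAR, Seurat 2.3.4 and mm10, and the matrix headers give software version 3.0.1. The deposited values are raw UMI counts per gene and cell, before any depth matching; the counting annotation is not given in the sources used here. Cells with 200 to 10000 genes and at most 10% mitochondrial UMIs were kept; the methods print the last limit as 0.10%, which was read as a fraction.

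Doublets were marked with Scrublet in scanpy 1.11.5. In WT library 2, where its threshold marked too few cells, the highest scores were taken at the expected rate of 0.8% per 1000 cells. Clustering used 2000 variable genes without the 8 genes, 30 components, 15 neighbours and Leiden resolution 1 (29 clusters). A cluster was named for the class with the most markers, at least 3, among its 30 leading genes. The limit of 50% doublets was set after seeing the data.

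UMIs were summed per library and class with at least 10 cells in every library, and tested by edgeR 4.0.16 (quasi-likelihood, TMM, filterByExpr, two-sided, Benjamini-Hochberg over all genes tested); SE is the log2 fold change over the root of F. The script was tested on simulated data. Libraries are separate mice, but 2 against 2 limits precision, and an exact permutation test could not give a p below 0.33. Named genes were the 8 genes, at most 3 called genes per pathway list and comparison, and the 5 genes with the profile most similar to that of Tlr9 and of Tlr7, of which 1 is not reported here. Genes, lists and markers were chosen with earlier results of these data known. Alternatives were DESeq2 1.42.0, RLE scaling, no filter, each library left out, a replicate block, doublets left out, a 5% mitochondrial limit, cells of at least 1000 UMIs and resolution 2. Annotation was GENCODE on GRCm38, the build mm10 denotes.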

Additional observations from a re-analysis of the deposited data

How the results depend on the processing

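Tlr9 was lower in TLR9-/- cells under every alternative tried in all cells, B lineage, monocyte lineage and plasmacytoid dendritic cells. With no low-count filter its log2 fold change in all cells was -1.96 and with DESeq2 -1.97. Both passed the threshold, so 1 of the 8 genes was called in all cells under each. With no filter 1 was called over the finer classes. The share of all genes called under each alternative is not given here, so the counts of calls under them have no background. With 1 library left out, the value in all cells ran from -2.29 to -1.58, and between 0 and 1 of the 8 genes were called over the finer classes. No calls of the 8 genes appeared in B or neutrophil lineage cells under any alternative.

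The labels do not tie the library numbers to the 2 experiments. The deviations of same-numbered libraries correlated across genes (r from 0.231 to 0.323 in the 3 lineages and all cells), a hint from the data and not from the design. With the replicate number as a block, Tlr9 had -1.94 in all cells and 1 of the 8 genes was called there, 1 in monocyte lineage cells and 2 over the finer classes, each time Tlr9; Tlr7 in B cells became 0.031.

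Values near 0 changed sign without being called. Unc93b1 in all cells became 0.0026 with the 5% mitochondrial limit and 0.034 with cells of at least 1000 UMIs, where Tlr7 became 0.034 in B lineage cells and 0.040 in B cells and Hsp90b1 -0.0030 in B lineage cells. Tlr7 in neutrophil lineage cells became 0.093 with doublet-rich clusters kept, an alternative chosen after seeing the data. At resolution 2, Hsp90b1 in neutrophil lineage cells became 0.052 and Tlr7 in plasmacytoid dendritic cells -0.34, where that class also took in cells led by Flt3 and Runx2. Leaving out 1 library, the ranges were -0.89 to 0.53 (Tlr3), -0.86 to 0.42 (Tlr7) and -0.19 to 0.18 (Unc93b1) in all cells; -0.64 to 0.39 (Tlr7), -0.10 to 0.19 (Unc93b1) and -0.16 to 0.17 (Hsp90b1) in B lineage cells; -0.33 to 1.06 (Tlr8) and -0.027 to 0.48 (Cnpy3) in monocyte lineage cells; -0.50 to 0.27 (Tlr7), -0.20 to 0.55 (Tlr13), -0.12 to 0.31 (Unc93b1), -0.36 to 0.12 (Cnpy3) and -0.19 to 0.12 (Hsp90b1) in neutrophil lineage cells; -0.28 to 0.65 (Tlr7), -0.092 to 0.25 (Cnpy3) and -0.019 to 0.30 (Hsp90b1) in plasmacytoid dendritic cells; and -0.44 to 0.47 (Tlr7) in B cells. The cause of these shifts was not tested.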
